A study of Homo sapiens with 22 samples.

Results

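The genes described here were those of the lectin chaperone cycle of the endoplasmic reticulum (ER), together with HSP90B1, which encodes the ER chaperone GRP94. They were 8 genes chosen by symbol, out of 58278 gene entries in each library: HSP90B1, CALR, CANX, UGGT1, UGGT2, MOGS, GANAB and PRKCSH. They were followed in LN308, a human glial cell line that the labels describe as astrocytoma-derived and p53-deficient, so every group shared that background. Total RNA was sequenced (RNA-Seq), and so were the mRNA fragments that ribosomes protect (Ribo-Seq), each in 11 libraries. Per assay these were 3 libraries of untreated cells (0 h), 3 after 2 h and 3 after 6 h in tunicamycin at 2.5 µg/ml, and 1 each after 2 h and 6 h in thapsigargin at 200 nM. The drugs were dissolved in DMSO, and the protocol names DMSO alone as the control, whereas the labels of the 0 h libraries read untreated. Tunicamycin blocks the first step of N-glycan precursor synthesis, and thapsigargin inhibits the calcium pump of the ER. The labels do not state whether the replicates are separate cultures. All p-values therefore refer to the spread among these libraries, which may be technical.

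In the ER, most secreted and membrane proteins receive an N-linked glycan that carries glucose residues at its end. Glucosidase I (MOGS) and then glucosidase II (catalytic subunit GANAB, regulatory subunit PRKCSH) trim these glucoses, and the lectins calnexin (CANX, membrane-bound) and calreticulin (CALR, soluble) hold the protein while a single glucose remains. UGGT1 senses misfolded glycoproteins and puts that glucose back, which returns them to the lectins, and UGGT2 is its paralog. GRP94 is the HSP90 of the ER and folds a restricted set of clients such as integrins and Toll-like receptors. Promoters of several ER chaperone genes carry the ER stress response element (ERSE), through which ATF6 and NF-Y act when unfolded proteins accumulate.

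Depth was 101 to 167 M counts per RNA-Seq library and 4.39 to 29.2 M counts per Ribo-Seq library (M, 1e6). No member fell under 7008 counts in any RNA-Seq library or under 139 in any Ribo-Seq library, and all 8 passed the filter on low counts in both assays. All levels are CPM (counts per 1e6 counts of the library) after TMM scaling (trimmed mean of M-values), and all changes are log2 fold changes ± SE from edgeR, called at a Benjamini-Hochberg adjusted p under 0.05 over all genes tested. Levels were not divided by transcript length, so they are compared between libraries and not between genes. On that scale the median change of all genes in RNA-Seq was -0.27 (log2) at 6 h of tunicamycin and -0.50 at 6 h of thapsigargin, and without untreated replicate 1 it was -0.01 and -0.06. With library size alone as the scaling these medians were -0.58 and -0.86, which lowered the members' values by a like amount, and the calls for all genes were 298 higher and 118 lower in place of 504 and 113 for tunicamycin, and 292 higher and 122 lower in place of 613 and 124 for thapsigargin.

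Some libraries stood apart. The RNA-Seq library of untreated replicate 1 had counts for 53489 genes, against 38264 to 40331 in the other 10. Among RNA-Seq libraries, both replicate 1 tunicamycin libraries and both thapsigargin libraries had 0.443 to 0.587% of their counts in the 13 mitochondrially encoded mRNAs, against 1.06 to 1.61% in the other 7. Of 11 glial and glioma markers 9 were over 1 CPM in all untreated RNA-Seq libraries, including S100B, VIM, NES and OLIG2, and SOX9 and AQP4 were under 1 CPM. GFAP was among the 9 but near that limit, at 1.59, 1.16 and 1.31 CPM. Summed over the list, glial markers were at 1505, 4355 and 4832 CPM in untreated cells, 2855 to 4409 at 6 h of tunicamycin and 2246 at 6 h of thapsigargin. Blood markers (5 genes) summed to 0.605 to 2.50 CPM and endothelial markers (3 genes) to 0.580 to 4.05 CPM over the 11 libraries, highest in untreated replicate 1. Of the 4 epithelial markers, KRT8 and KRT18 were expressed and EPCAM and CDH1 were under 1 CPM in every RNA-Seq library. The epithelial sum was 55.2 to 70.4 CPM in untreated cells and 84.6 to 137.5 CPM at 6 h of tunicamycin. The part of these differences in the results below was not tested. The members' RNA-Seq changes at 6 h of tunicamycin are also given without untreated replicate 1 or without all replicate 1 libraries. For thapsigargin and for the lists, such values are given for some genes.

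The promoter windows are shown because the rule that chose the genes used no sequence, and because the presence of an ERSE split them. Windows of 250 bases before an annotated start were available for 7 of the 8 genes, from RefSeq on GRCh38.p14. The CANX windows lay inside the gene span given below, so they precede starts within it. Both strands were searched for CCAAT, 9 bases of any kind, then CCACG. HSP90B1 held 2 matches, CALR 1 and CANX 1, and UGGT1, UGGT2, GANAB and PRKCSH held none in any window. Over all genes with a window, 25 of 27305 (0.0916%) held a match, and the HSP90B1 window was the only one of 35116 with more than 1. The matches lay 194 to 176 and 89 to 71 bases before the start of HSP90B1, the nearer on the opposite strand. They lay 225 to 207 bases before the start of CALR on the opposite strand, and for CANX 151 to 133 bases before the start of the window shown. CANX has 4 windows, and the same match lay 189 to 171 bases before the start of another. With CCACG relaxed to CCANG or CCACN, 0.674% of genes held a match, and among the members these were again HSP90B1, CALR and CANX, with 3 matches in HSP90B1. ERSE-II (ATTGG, 1 base of any kind, then CCACG, in 0.0659% of genes) had no match in any member's window. Nor had the UPRE (TGACG directly followed by TGG, 0.780% of genes) or the C/EBP-ATF element (TGATG, 1 base of any kind, then AAT, 1.09% of genes). The sequences read 5′ to 3′ along the gene's strand, with the 2 ends of each ERSE in capitals (an ERSE on the opposite strand reads CGTGG, 9 bases, ATTGG). HSP90B1 is at chr12:103930160-103930409 (plus strand), CALR at chr19:12938359-12938608 (plus) and CANX at chr5:179698679-179698928 (plus). GANAB, at chr11:62646614-62646863 (minus strand), is shown as a member with no match. UGGT1 and UGGT2 also held no match, and their RNA-Seq libraries of 6 h of tunicamycin all lay above the untreated ones. So did those of MOGS, the member without a window. Whether the ERSE bears on the changes was not tested.
HSP90B1: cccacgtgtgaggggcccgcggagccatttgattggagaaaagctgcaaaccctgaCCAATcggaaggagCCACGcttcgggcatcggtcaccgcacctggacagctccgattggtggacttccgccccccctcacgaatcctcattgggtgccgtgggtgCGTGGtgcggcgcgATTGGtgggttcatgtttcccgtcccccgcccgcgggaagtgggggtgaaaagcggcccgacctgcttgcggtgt
CALR: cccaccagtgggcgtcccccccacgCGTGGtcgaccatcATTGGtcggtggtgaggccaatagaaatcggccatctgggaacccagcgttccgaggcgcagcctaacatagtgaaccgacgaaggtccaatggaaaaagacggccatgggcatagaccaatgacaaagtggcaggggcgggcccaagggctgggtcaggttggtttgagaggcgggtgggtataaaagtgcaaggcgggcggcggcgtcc
CANX: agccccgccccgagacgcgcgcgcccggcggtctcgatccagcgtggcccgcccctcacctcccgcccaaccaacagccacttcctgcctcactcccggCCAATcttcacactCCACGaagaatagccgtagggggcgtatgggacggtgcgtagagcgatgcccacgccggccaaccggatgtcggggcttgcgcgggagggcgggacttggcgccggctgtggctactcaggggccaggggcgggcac
GANAB: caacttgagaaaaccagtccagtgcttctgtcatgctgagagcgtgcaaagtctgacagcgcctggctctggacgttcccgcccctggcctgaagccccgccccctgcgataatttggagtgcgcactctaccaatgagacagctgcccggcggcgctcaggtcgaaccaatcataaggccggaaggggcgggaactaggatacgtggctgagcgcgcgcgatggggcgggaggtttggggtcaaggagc

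Gene bodies are given from the same annotation. HSP90B1 (ENSG00000166598.14) spans positions 103930410 to 103947926 of chromosome 12 and CALR (ENSG00000179218.13) spans 12938609 to 12944489 of chromosome 19, each overlapping a microRNA gene (MIR3652 and MIR6515). CANX (ENSG00000127022.14) spans 179678656 to 179731641 of chromosome 5 and overlaps CBY3 and the pseudogene HMGB3P22. UGGT1 (ENSG00000136731.12) and MOGS (ENSG00000115275.11) lie on chromosome 2, at 128091200 to 128195677 (overlapping SRMP3) and 74461057 to 74465382. UGGT2 (ENSG00000102595.19) is on chromosome 13 at 95801580 to 96053401 (overlapping HMGN1P24), and GANAB (ENSG00000089597.16) on chromosome 11 at 62624829 to 62646613. PRKCSH (ENSG00000130175.9) spans 11435635 to 11450968 of chromosome 19 and overlaps ODAD3. No source used here states whether counting used strand, so reads of these overlapping genes cannot be told apart. Pseudogenes of members took few counts: HSP90B2P 203 to 569, HSP90B3P 23 to 124 and CALR4P 0 to 41 per RNA-Seq library.

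After 6 h of tunicamycin, HSP90B1 mRNA rose 3.09-fold, and it was the only member called. CALR was 2.28-fold, CANX 1.87-fold and MOGS 1.78-fold the untreated level, and UGGT1 and UGGT2 were 1.54-fold and 1.50-fold, and none of these passed in the fit of all libraries without the replicate block. The glucosidase II subunits GANAB and PRKCSH overlapped the untreated libraries. For HSPA5 (BiP, the main ER HSP70), which was read as a reference, the mean rose from 885 ± 335 to 11235 ± 3977 CPM (SD, n = 3 each), a log2 change of 3.67 ± 0.52 (adjusted p = 0.00782) that was 3.40 without untreated replicate 1 (adjusted p = 0.0169). In 6 of the 8 members (all but GANAB and PRKCSH) every 6 h library was above every untreated library, against 10.5% of all genes tested. That share is over 41130 genes, and 31144 passed the filter without untreated replicate 1. The share among those 31144 was not computed. In bulk libraries a change in RNA per cell and a change in the share of cells that express a gene cannot be told apart.

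HSP90B1 was at 1086, 981 and 1089.8 CPM in untreated replicates 1, 2 and 3. It was at 1662, 1309 and 1381 CPM after 2 h of tunicamycin and at 4383, 2503 and 2857 CPM after 6 h. Each step left the groups apart, and replicate 1 was the highest of its group at both times. The change at 6 h was 1.63 ± 0.27 (adjusted p = 0.0169), in a comparison where 1.23% of all genes were called higher. The call was lost without untreated replicate 2, untreated replicate 3 or tunicamycin 6 h replicate 3 and with only the 2 compared groups in the fit (adjusted p = 0.0522 to 0.0815), while the change stayed between 1.56 and 1.69. Without untreated replicate 1 the change was 1.65 (adjusted p = 0.0141), and with replicates 2 and 3 alone it was 1.40 (adjusted p = 3.8e-05).

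Of the lectins, CALR was at 367, 746 and 771 CPM in untreated cells. It was at 731, 810.4 and 978 CPM after 2 h and at 1425, 1322 and 1546 CPM after 6 h. The 6 h libraries were close together and all above the rest, whereas untreated replicate 1 was far below the others of its group. CALR changed by 1.19 ± 0.30 at 6 h (adjusted p = 0.0913). With the replicate number as a block it passed (1.25, adjusted p = 0.0445), as it did without untreated replicate 1 (0.93, adjusted p = 0.0329). CANX was at 1172, 1233 and 1302 CPM in untreated cells and at 2100.5, 1288 and 1524 CPM after 2 h. After 6 h it was at 3066, 1760.2 and 2108 CPM, with replicate 1 again far above the other two. Its change at 6 h was 0.90 ± 0.28 (adjusted p = 0.166), and 0.63 with replicates 2 and 3 alone (adjusted p = 0.00643).

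The glucosyltransferases had smaller changes than CALR, with no test of that difference. UGGT1 was at 478, 442 and 455 CPM in untreated cells, 543, 464 and 499.8 CPM after 2 h, and 826, 607 and 691 CPM after 6 h. UGGT2 was at 100.0, 87.4 and 109.7 CPM, then 117, 93.1 and 111 CPM, then 169, 127 and 148 CPM. For both, the 6 h libraries lay above all others and the 2 h libraries overlapped the untreated ones. The changes at 6 h were 0.63 ± 0.21 for UGGT1 (adjusted p = 0.193) and 0.58 ± 0.21 for UGGT2 (adjusted p = 0.217). With replicates 2 and 3 alone they were 0.56 (adjusted p = 0.00497) and 0.51 (adjusted p = 0.0301). With the replicate block they were 0.62 and 0.58 (adjusted p = 0.121 and 0.103). Without untreated replicate 1 they were 0.66 and 0.59 (adjusted p = 0.0857 and 0.159).

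Among the glucosidases, MOGS had a larger log2 change at 6 h than either subunit of glucosidase II, with no test of that difference. MOGS, which removes the outermost glucose, was at 64.9, 72.1 and 70.0 CPM in untreated cells and at 57.6, 62.2 and 68.2 CPM after 2 h. After 6 h it was at 107, 118 and 144 CPM, above all earlier libraries. The change at 6 h was 0.83 ± 0.20 (adjusted p = 0.0794), and it passed with the replicate block (0.82, adjusted p = 0.0345). Without untreated replicate 1 the change was 0.80 and did not pass (adjusted p = 0.0620). GANAB was at 532, 833 and 924 CPM in untreated cells, 537, 872 and 1087 CPM after 2 h, and 649.8, 894 and 1012 CPM after 6 h. PRKCSH was at 227, 290.1 and 314 CPM, then 191, 292 and 352 CPM, then 186, 260.4 and 294 CPM. In both subunits replicate 1 was the lowest of every group, and the groups overlapped at each time. By replicate number, GANAB was higher and PRKCSH lower at 6 h than in untreated cells in every pair. The 6 h changes were 0.16 ± 0.32 for GANAB (adjusted p = 0.798) and -0.17 ± 0.28 for PRKCSH (adjusted p = 0.754). With the replicate block they were 0.18 (adjusted p = 0.601) and -0.18 (adjusted p = 0.559). GANAB turned to -0.08 with library size as the scaling and to -0.03 without untreated replicate 1. With replicates 2 and 3 alone it was 0.14. PRKCSH had -0.28 without untreated replicate 1 and -0.10 with replicates 2 and 3 alone.

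**Figure D1:**
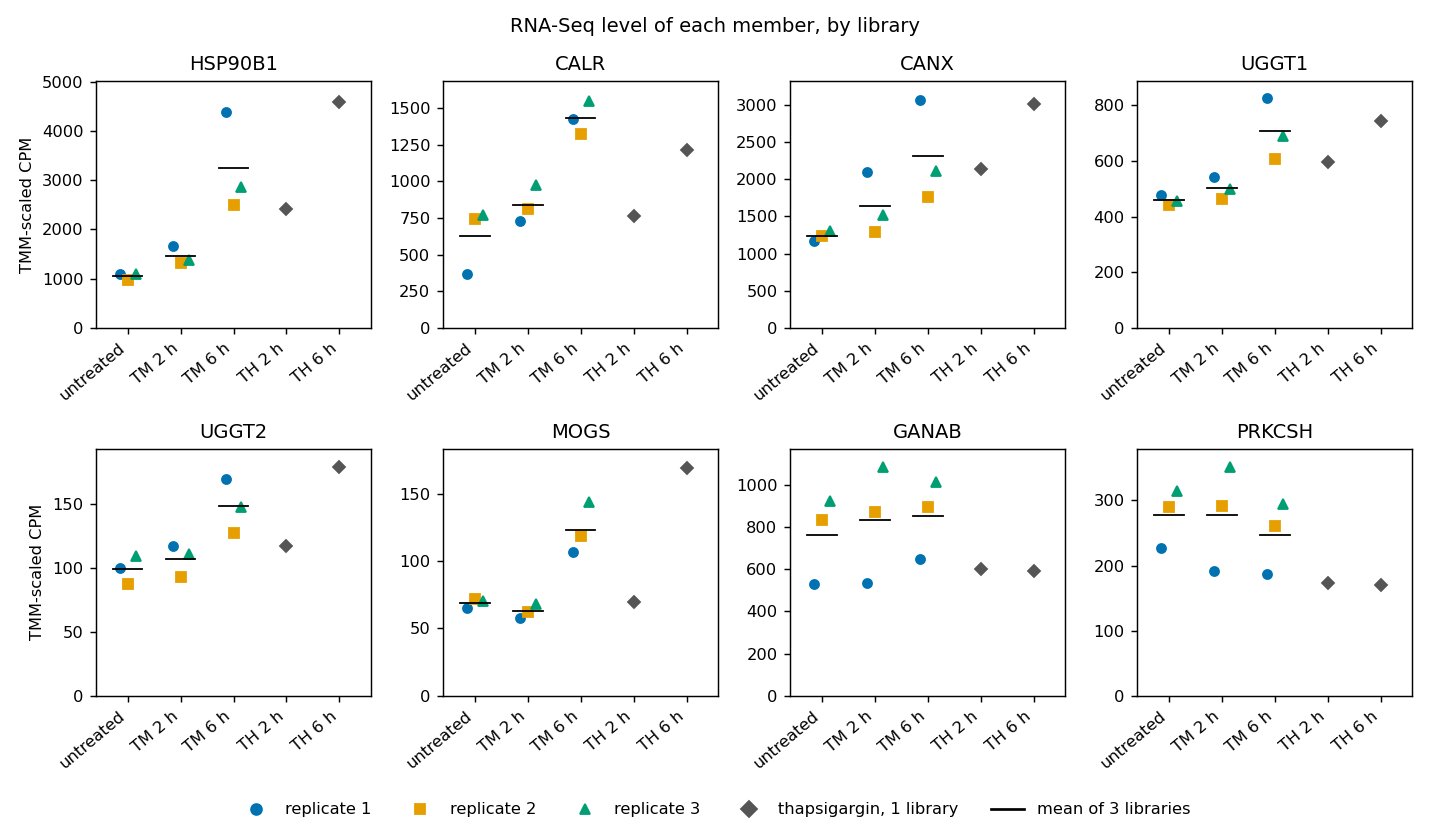
RNA-Seq level of each member in every library (TMM-scaled CPM, linear axes from 0). Points are libraries, with replicates 1 to 3 by shape and colour, bars are means of 3 libraries, TM is tunicamycin and TH thapsigargin (1 library each). HSP90B1 reaches 2503 to 4383 CPM at 6 h of tunicamycin from 981 to 1089.8 CPM in untreated cells, while GANAB and PRKCSH overlap between groups.

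Set against all genes, the members as a list had a median change of 0.73 at 6 h, with 7 of 8 positive, beside the median of -0.27 over all 41130 genes tested. Without untreated replicate 1, 31144 genes passed the filter and their median was -0.01. Their joint share of RNA-Seq counts went from 0.519 ± 0.0591% in untreated cells to 0.573 ± 0.0210% after 2 h and 0.843 ± 0.129% after 6 h (SD, n = 3). In replicates 2 and 3 it was 0.475% and 0.497% in untreated cells and 0.732% and 0.812% after 6 h. The count of members called depended on the fit. With the replicate block 3 members were called (HSP90B1, CALR and MOGS, against 2.61% of all genes), without untreated replicate 1 there were 2 (HSP90B1 and CALR, 2.36%), and with DESeq2 there were 5 (also MOGS, CANX and UGGT1, 3.27%). With replicates 2 and 3 alone 6 were called, all but GANAB and PRKCSH, where 10.6% of all genes were called higher. The same 6 were called with the block and without untreated replicate 1, where 12.1% of all genes were.

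After 2 h of tunicamycin no member was called, in a comparison where edgeR called 0.00973% of all genes higher, none of the members had an unadjusted p under 0.05 and DESeq2 called none either. The median change of the members was 0.13, beside -0.17 over all genes. Over all genes it was 0.04 without untreated replicate 1. HSP90B1, with 0.46 ± 0.26 (adjusted p = 0.548), was the only member whose 2 h libraries all lay above the untreated ones, against 3.44% of all genes. Between 2 h and 6 h, the background was 0.588% of genes called higher and no member passed, although 5 had an unadjusted p under 0.05. MOGS had 0.97 ± 0.20 (adjusted p = 0.0626) and HSP90B1 1.16 ± 0.27 (adjusted p = 0.0927). With the replicate block both passed, at 0.97 (adjusted p = 0.0259) and 1.14 (adjusted p = 0.0471), where 1.68% of all genes were called. DESeq2 called the same 2 genes, where 2.35% of all genes were called, and the fit of the 2 compared groups called MOGS, where 1.96% were. With replicates 2 and 3 alone 6 members were called, where 12.6% of all genes were, and with the block without untreated replicate 1 also 6, where 15.9% were. The 6 h libraries lay above all 2 h libraries for HSP90B1, CALR, UGGT1, UGGT2 and MOGS, 5 of 8, against 10.3% of all genes.

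**Figure D2:**
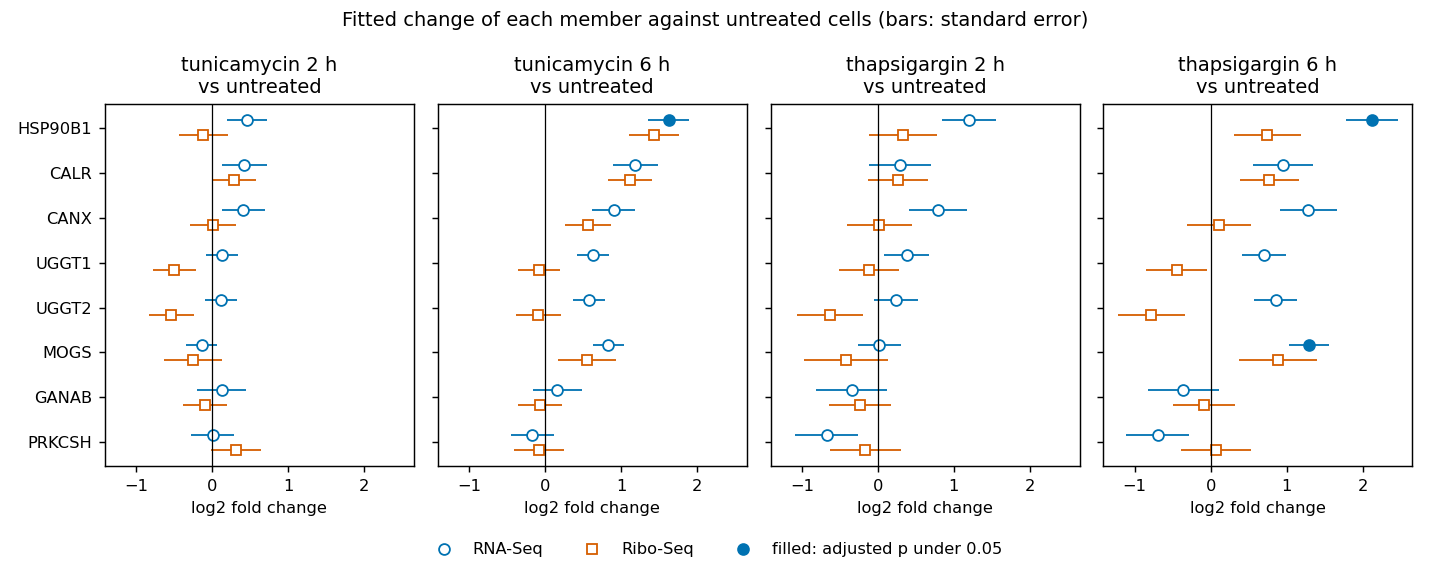
Fitted log2 fold change of each member against untreated cells in RNA-Seq (circles) and Ribo-Seq (squares), with the standard error as the bar and filled symbols for an adjusted p under 0.05. HSP90B1 RNA is filled at 6 h of both drugs (1.63 and 2.13) and MOGS RNA at 6 h of thapsigargin (1.29). No Ribo-Seq value is filled.

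In footprints, GRP94 and calreticulin had the highest changes of the members. At 6 h of tunicamycin, HSP90B1 footprints were 2.69-fold and CALR footprints 2.16-fold the untreated level, while UGGT1 and UGGT2 footprints were 0.945-fold and 0.941-fold, values that turned positive without replicate 1. No member was called, where 0.670% of all genes were called higher, and 2 members had an unadjusted p under 0.05. Replicate numbers paired the Ribo-Seq libraries, and with the replicate block HSP90B1 and CALR were called, where 1.70% of all genes were. The same 2 were called with DESeq2 (1.93% of all genes) and with no filter on low counts (0.902%), and HSP90B1 without CALR with replicates 2 and 3 alone (1.95%). The median change of the 8 members was 0.24, beside -0.07 over all genes. Their joint share of footprint counts was 0.371 ± 0.0470% in untreated cells, 0.379 ± 0.0426% after 2 h and 0.553 ± 0.0331% after 6 h (SD, n = 3).

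HSP90B1 footprints were at 612, 323 and 522 CPM in untreated cells, 556, 351 and 438 CPM after 2 h, and 1440.3, 1132 and 1352 CPM after 6 h. The 2 h libraries overlapped the untreated ones and the 6 h libraries lay far above both. The change at 6 h was 1.43 ± 0.33 (adjusted p = 0.0736), 1.49 with the block (adjusted p = 0.0138) and 1.68 without untreated replicate 1 (adjusted p = 0.0458). CALR footprints were at 555, 696 and 808 CPM, then 854, 758 and 908 CPM, then 1546, 1319 and 1590.1 CPM. Their change at 6 h was 1.11 ± 0.29 (adjusted p = 0.118), and 1.14 with the block (adjusted p = 0.0453). CANX footprints were at 1214, 813 and 977 CPM in untreated cells and at 1374, 1447 and 1614 CPM after 6 h, a change of 0.56 ± 0.30 (adjusted p = 0.493). HSP90B1, CALR and CANX were the 3 members whose 6 h footprint libraries all lay above the untreated ones, against 9.54% of all genes.

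UGGT1 footprints were at 421, 233 and 267 CPM in untreated cells, 211, 216 and 225 CPM after 2 h, and 246, 309 and 315 CPM after 6 h. UGGT2 footprints were at 54.6, 28.0 and 50.0 CPM, then 32.4, 25.7 and 33.5 CPM, then 34.3, 41.6 and 48.9 CPM. Untreated replicate 1 was the highest of all 11 libraries for both genes. The 6 h changes were -0.08 ± 0.28 and -0.09 ± 0.29, and with replicates 2 and 3 alone they turned positive, to 0.37 (UGGT1, adjusted p = 0.364) and 0.26 (UGGT2, adjusted p = 0.752). At 2 h the UGGT1 libraries all lay below the untreated ones, against 3.76% of all genes, with a change of -0.50 ± 0.28 (adjusted p = 1.0). No member's 2 h footprint libraries all lay above, against 2.58% of all genes, and no member was called at 2 h, where edgeR called 0% of genes higher, no member had an unadjusted p under 0.05 and DESeq2 called none. MOGS footprints were at 81.3, 73.2 and 84.8 CPM in untreated cells and at 58.1, 141 and 151 CPM after 6 h, so that replicate 1 went below the untreated libraries and the other two above. GANAB footprints ranged from 746 to 946 CPM in untreated cells and from 689 to 939 CPM at 6 h. PRKCSH footprints ranged from 240.3 to 328 CPM and from 229 to 317 CPM, and 2 h replicate 3 stood apart at 546 CPM.

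From 2 h to 6 h of tunicamycin, footprints of HSP90B1, CALR, CANX, UGGT1 and UGGT2 were higher in every 6 h library, 5 of 8 against 9.10% of all genes. None was called, where 0.608% of genes were called higher, and 2 members had an unadjusted p under 0.05. HSP90B1 had the largest change of the members, 1.54 ± 0.33 (adjusted p = 0.0535). It was called with the replicate block (1.56, adjusted p = 0.0122, 1.67% of genes called) and with replicates 2 and 3 alone (1.67, adjusted p = 0.0193, 2.58% of genes called). DESeq2 called HSP90B1 and CALR, where 1.74% of genes were called, and with no filter on low counts HSP90B1 was called, where 0.913% were.

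**Figure D3:**
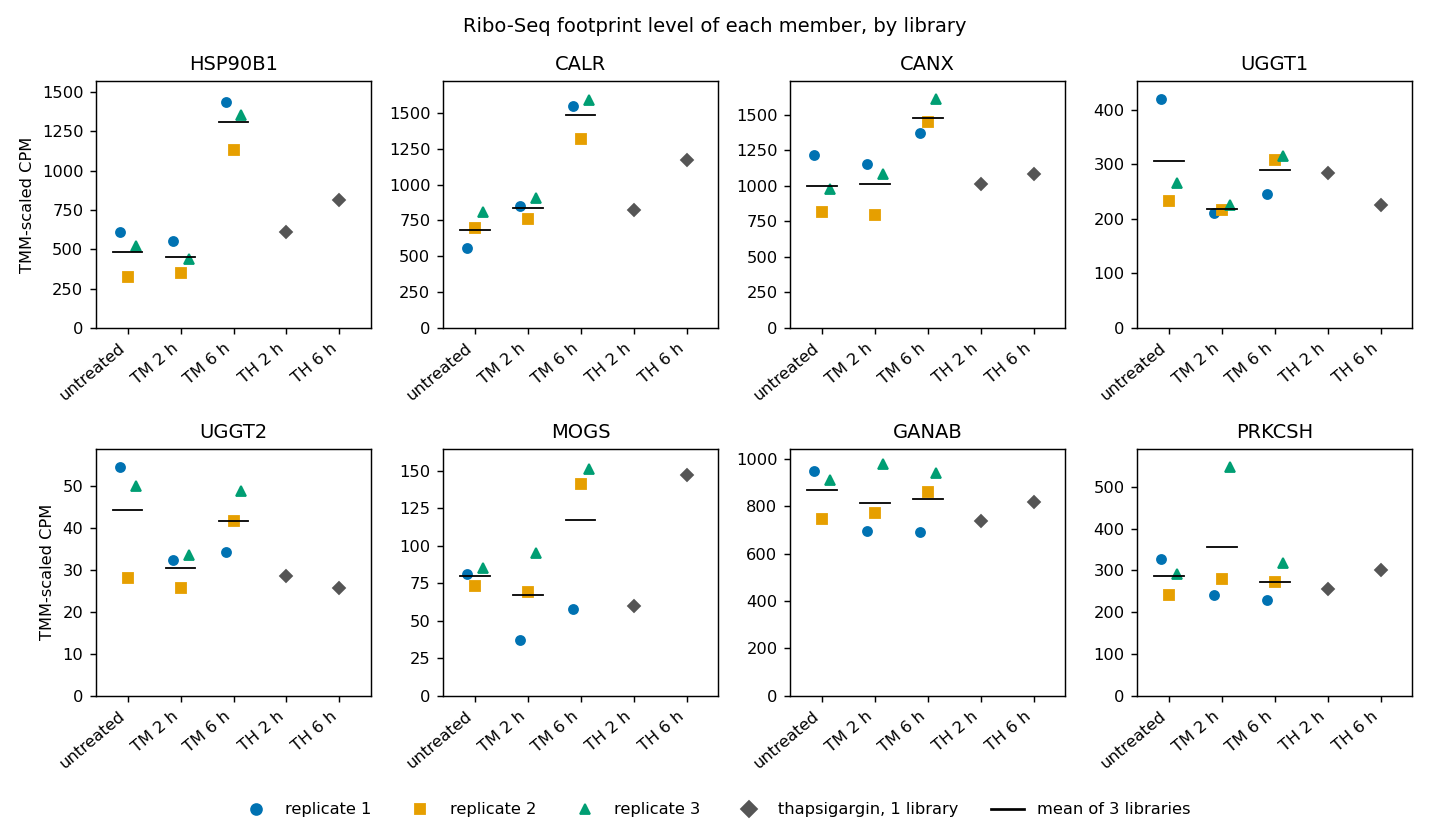
Ribo-Seq footprint level of each member in every library (TMM-scaled CPM, linear axes from 0), drawn as for RNA-Seq: points are libraries, bars are means of 3. HSP90B1 and CALR at 6 h of tunicamycin lie above all other tunicamycin and untreated libraries, and the UGGT1 and UGGT2 values of 6 h lie within the untreated range.

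Translational efficiency compares footprints with mRNA, and its change was taken from the interaction of assay and treatment. In untreated cells the footprint level relative to the RNA level (log2 of the ratio of mean CPM, not per length) was -1.12 for HSP90B1 and -1.16 for UGGT2, at percentiles 10.5 and 9.87 of 16409 genes. It was -0.58 for UGGT1 and -0.30 for CANX, and between 0.05 and 0.21 for CALR, MOGS, GANAB and PRKCSH, near the middle of all genes (percentiles 49.8 to 57.6). By untreated replicate (1, 2 and 3), the unlogged ratio was 1.78, 0.896 and 0.986 for GANAB and 1.44, 0.828 and 0.931 for PRKCSH. For CALR it was 1.51, 0.933 and 1.048, and for MOGS it was over 1 in each. Replicate 1 had the highest untreated ratio for every member, and GANAB and PRKCSH were over 1 only there. At 6 h of tunicamycin the interaction was -0.03 ± 0.39 for HSP90B1, 0.03 ± 0.36 for CALR and -0.18 ± 0.36 for CANX. It was -0.54 ± 0.31 for UGGT1 and -0.51 ± 0.32 for UGGT2 (adjusted p = 1.0 for each of the 5), with 95% intervals of -1.16 to 0.07 and -1.15 to 0.13. With replicates 2 and 3 alone the UGGT1 and UGGT2 values were -0.19 and -0.24, and HSP90B1 and CANX turned to 0.20 and 0.18. No member passed at 2 h, at 6 h or between them, where 0% of 18500 genes were called in each, none had an unadjusted p under 0.05 and DESeq2 called none.

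Ratios between 2 genes within a library do not depend on the scaling. GANAB to PRKCSH, the subunits of glucosidase II, was 2.34, 2.87 and 2.94 in untreated RNA-Seq libraries, 2.81, 2.99 and 3.09 after 2 h, and 3.49, 3.43 and 3.44 after 6 h of tunicamycin. All 3 libraries of 6 h lay above the rest, and both thapsigargin libraries did too, at 3.46 and 3.48. In footprints the ratio was 2.89, 3.11 and 3.12 in untreated cells and 3.00, 3.17 and 2.97 at 6 h, so the groups overlapped. CALR to CANX was 0.313, 0.605 and 0.592 in untreated RNA-Seq libraries and 0.465, 0.751 and 0.733 at 6 h, so the groups overlapped. Each replicate number had a higher CALR to CANX ratio in RNA-Seq at 6 h than in untreated cells. CALR to CANX footprints went from 0.457, 0.856 and 0.827 in untreated cells to 1.13, 0.912 and 0.985 at 6 h. There every 6 h library was higher, and untreated replicate 1 was the lowest. HSP90B1 to HSPA5 went in RNA from 2.15, 0.973 and 0.955 to 0.636, 0.207 and 0.194, and in footprints from 1.29, 0.573 and 0.773 to 0.305, 0.189 and 0.192. UGGT1 to UGGT2 was 4.66 ± 0.462 in untreated RNA-Seq and 4.77 ± 0.101 at 6 h (SD, n = 3), a difference smaller than the spread. The ratios are given without a test. The smallest p that an exact two-sided permutation test of 3 against 3 libraries can give is 0.10.

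**Figure D4:**
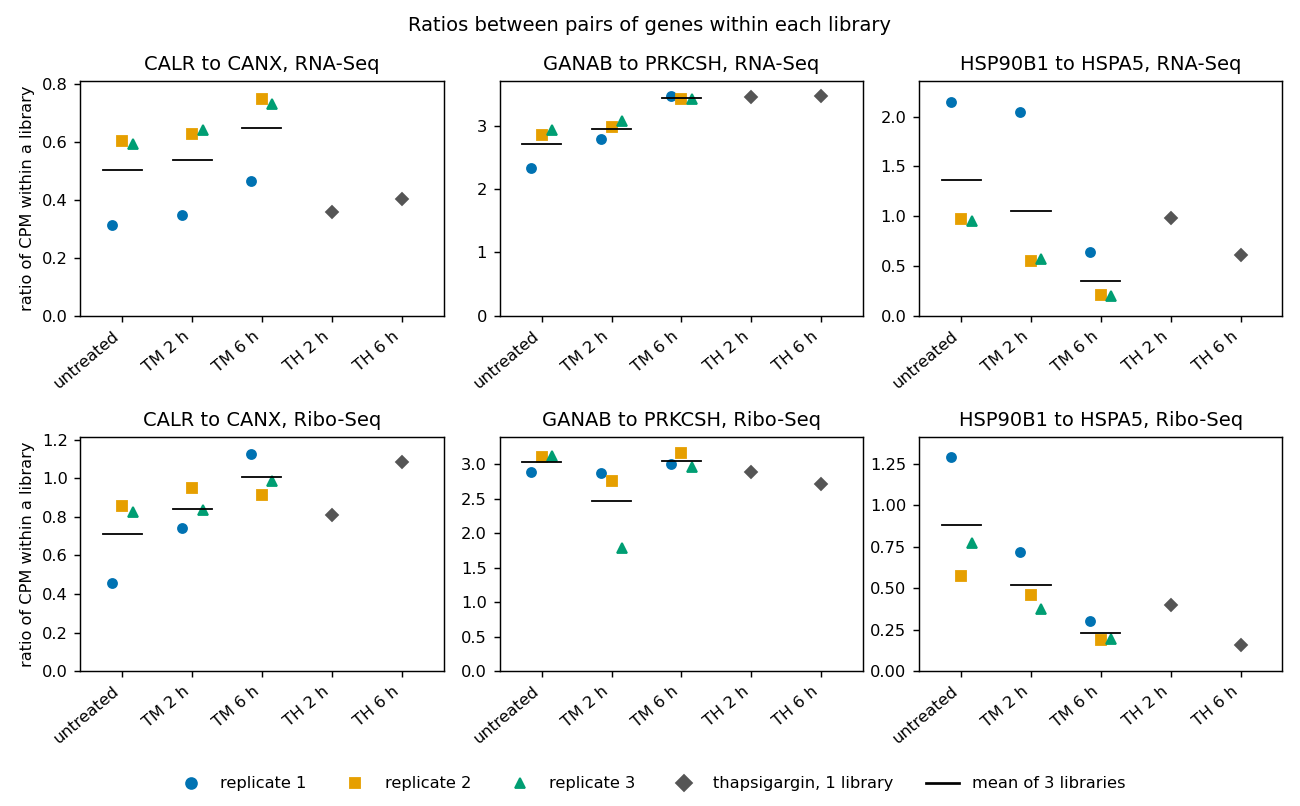
Ratio of CPM between 2 genes within each library, for RNA-Seq (top) and Ribo-Seq (bottom), linear axes from 0, with points as libraries and bars as means of 3. GANAB to PRKCSH in RNA-Seq sits at 3.43 to 3.49 in the 6 h tunicamycin and both thapsigargin libraries, above 2.34 to 2.94 in untreated cells.

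Thapsigargin had 1 library per time and assay, so its tests assume that this library varied like the other groups, and there was no replicate check. At 6 h HSP90B1 mRNA was at 4595 CPM, MOGS at 169 CPM, CANX at 3011 CPM and CALR at 1212 CPM. HSP90B1 rose by 2.13 ± 0.34 (adjusted p = 0.0154) and MOGS by 1.29 ± 0.26 (adjusted p = 0.0401), 2 of 8 members, where 1.49% of all genes were called higher. Both calls were lost without untreated replicate 2, without untreated replicate 3 and with only the compared groups in the fit, at adjusted p = 0.0504 to 0.0644 for HSP90B1 and 0.102 to 0.112 for MOGS. MOGS was also lost with library size as the scaling (adjusted p = 0.121, 0.710% of genes called) and with no filter on low counts (adjusted p = 0.0515, 1.17%). Both were called without untreated replicate 1, with changes of 2.15 for HSP90B1 (adjusted p = 0.00900) and 1.24 for MOGS (adjusted p = 0.0219). DESeq2 called CANX and UGGT2 as well, where 4.39% of genes were called higher. CANX had 1.29 ± 0.37 (adjusted p = 0.116), UGGT2 0.86 ± 0.28 (adjusted p = 0.162) and UGGT1 0.70 ± 0.29 (adjusted p = 0.256). GANAB and PRKCSH were at 594 and 171 CPM, with changes of -0.36 ± 0.47 and -0.70 ± 0.42 (adjusted p = 0.654 and 0.412). With the replicate block, in which the RNA-Seq thapsigargin libraries count as replicate 1, GANAB turned to 0.15 and PRKCSH had -0.31. With that block and without untreated replicate 1, 6 members were called (all but GANAB and PRKCSH) where 13.6% of all genes were called higher, and CANX had 0.65 (adjusted p = 0.00234).

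At 2 h of thapsigargin HSP90B1 mRNA was at 2411 CPM (1.20 ± 0.35, adjusted p = 0.318) and CANX at 2136 CPM (0.79 ± 0.38, adjusted p = 0.489). No member was called, where edgeR called 0.0973% of genes higher, 1 member had an unadjusted p under 0.05 and DESeq2 called none. With the block and without untreated replicate 1 HSP90B1 was called, at 0.67 (adjusted p = 0.0163), where 7.56% of all genes were called higher. Footprints under thapsigargin were at 612 and 814 CPM for HSP90B1 (2 h and 6 h), 824 and 1173 CPM for CALR, and 1015 and 1081 CPM for CANX. UGGT1 had 284 and 225 CPM, UGGT2 28.5 and 25.7 CPM, and MOGS 59.5 and 147 CPM. No member's footprints were called at 2 h (0.0567% of genes called higher) or 6 h (0.747%), none had an unadjusted p under 0.05 and DESeq2 called none. At 6 h UGGT2 had the lowest interaction of footprints and RNA among the members, -1.47 ± 0.47 (adjusted p = 0.354), followed by HSP90B1 with -1.21 ± 0.56 (adjusted p = 0.471), CANX with -1.01 ± 0.51 (adjusted p = 0.504) and UGGT1 with -0.97 ± 0.45 (adjusted p = 0.470). None passed, where 0.00541% of genes were called at 2 h and 0% at 6 h, although 3 members (UGGT2, HSP90B1 and UGGT1) had an unadjusted p under 0.05 at 6 h and none at 2 h, and DESeq2 called none at either time.

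Compared directly at 6 h, HSP90B1 mRNA differed between thapsigargin and tunicamycin by 0.50 (95% interval -0.21 to 1.21, adjusted p = 0.971) and MOGS by 0.46 (-0.08 to 1.00, adjusted p = 0.945). HSP90B1 footprints differed by -0.68 (-1.61 to 0.24, adjusted p = 0.745) and UGGT2 footprints by -0.70 (-1.56 to 0.16, adjusted p = 0.718). No member was called in RNA-Seq at 2 h (0.0267% of genes called) or 6 h (0%), nor in Ribo-Seq at 2 h (0.0258%) or 6 h (0.0206%), none had an unadjusted p under 0.05 and DESeq2 called none. Against the 3 tunicamycin libraries of 6 h taken one by one, HSP90B1 mRNA under thapsigargin was 1.048, 1.84 and 1.61 times as high, CANX 0.982, 1.71 and 1.43 times, and GANAB 0.914, 0.664 and 0.587 times. In these, and in UGGT2 and PRKCSH, the ratio to replicate 1 was the closest to 1. Replicate 1 was the tunicamycin library with a mitochondrial share like that of thapsigargin, and the part of that likeness in the comparison was not tested. In the other 3 members the closest was another replicate: CALR was at 0.851, 0.917 and 0.784 times, UGGT1 at 0.900, 1.22 and 1.08 times and MOGS at 1.58, 1.43 and 1.17 times. With the replicate block and without untreated replicate 1, MOGS was called (0.63, adjusted p = 0.00642), 1 of 8 members where 13.5% of all genes were called in either direction, a share near the background.

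Other genes of the pathway were read from fixed lists. Of 9 partners of the cycle and of GRP94, PDIA3 (ERp57, the oxidoreductase that binds the lectins) rose at 6 h of tunicamycin, from 379, 364 and 388 CPM to 1017, 723 and 848 CPM. Its change was 1.19 ± 0.22 (adjusted p = 0.0252) with tunicamycin and 1.46 ± 0.28 (adjusted p = 0.0331) with thapsigargin. No other partner was called in either, where 1.23% and 1.49% of all genes were called higher. Without untreated replicate 1 the PDIA3 changes were 1.20 (adjusted p = 0.0137) and 1.46 (adjusted p = 0.0117). The median of the 9 was 0.49, with 8 positive. RPN1 had 0.83 and PPIB 0.70, whereas CNPY4 had -0.71 (adjusted p = 0.187). In footprints no partner was called at 6 h of tunicamycin, where 0.670% of all genes were called higher, or of thapsigargin, where 0.747% were. With tunicamycin the median of the 9 was -0.04, with 4 positive and 5 negative. PDIA3 had the highest change, 1.28 ± 0.41 (adjusted p = 0.220), and the lowest was -1.57. CNPY4 footprints were at 31.8, 19.2 and 23.6 CPM in untreated cells and at 12.7, 6.33 and 6.14 CPM at 6 h of tunicamycin.

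Of 14 genes of glycan trimming, export and disposal, 4 rose and 1 fell in RNA-Seq at 6 h of tunicamycin, where 1.23% of all genes were called higher and 0.275% lower. EDEM1, which marks misfolded glycoproteins for degradation by trimming mannose, went from 111, 173 and 180 CPM to 502, 444 and 510.3 CPM (1.65 ± 0.24, adjusted p = 0.00893). ERLEC1, a lectin of the degradation machinery, rose by 1.48 ± 0.25 (adjusted p = 0.0177), and EDEM3 by 1.07 ± 0.22 (adjusted p = 0.0438). EDEM1 was also called between 2 h and 6 h (1.38, adjusted p = 0.0309). LMAN1, the lectin that carries glycoproteins out of the ER, rose by 1.20 ± 0.25 (adjusted p = 0.0491). MAN1C1, a Golgi mannosidase, fell by 1.88 ± 0.30 (adjusted p = 0.0150), from 7.99, 5.71 and 4.82 CPM to 1.43, 2.01 and 1.59 CPM. The same 5 genes were called at 6 h of thapsigargin in the same directions, from 1.47 for EDEM3 to 2.23 for EDEM1 and -2.48 for MAN1C1, where 0.301% of all genes were called lower. Without untreated replicate 1 each of the 5 stayed called with both drugs, and for tunicamycin the changes were 1.47 for EDEM1, 1.47 for ERLEC1, 1.07 for LMAN1, 1.02 for EDEM3 and -1.64 for MAN1C1. Thapsigargin and tunicamycin were compared with the same untreated libraries. In footprints none of the 14 was called with tunicamycin, and MANEA fell at 6 h of thapsigargin, to 0.600 CPM in that library from 12.1 to 39.8 CPM in untreated cells (0.227% of genes called lower). That value rests on few reads in 1 library of 6.38 M counts. Untreated replicates 1, 2 and 3 were at 39.8, 16.2 and 12.1 CPM.

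The 6 paralogs that act outside the cycle or outside the ER had no call in any comparison. CLGN, the calnexin homolog of the testis, was at 3.04 to 3.52 CPM in untreated cells and 5.06 to 11.1 CPM at 6 h of tunicamycin (1.13 ± 0.38, adjusted p = 0.193). The cytosolic HSP90 genes HSP90AA1 and HSP90AB1 had 0.01 ± 0.38 and 0.17 ± 0.29, and TRAP1, the mitochondrial HSP90, had 0.19 ± 0.23, beside 1.63 for HSP90B1. HSP90AA1 was at 447, 1580 and 1315 CPM in untreated cells and at 1141, 1169 and 1063 CPM at 6 h. HSP90AB1 was at 650, 1302 and 1303 CPM, then 1202, 1190 and 1261 CPM. For both, every 6 h library lay above untreated replicate 1 and below untreated replicates 2 and 3.

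**Figure D5:**
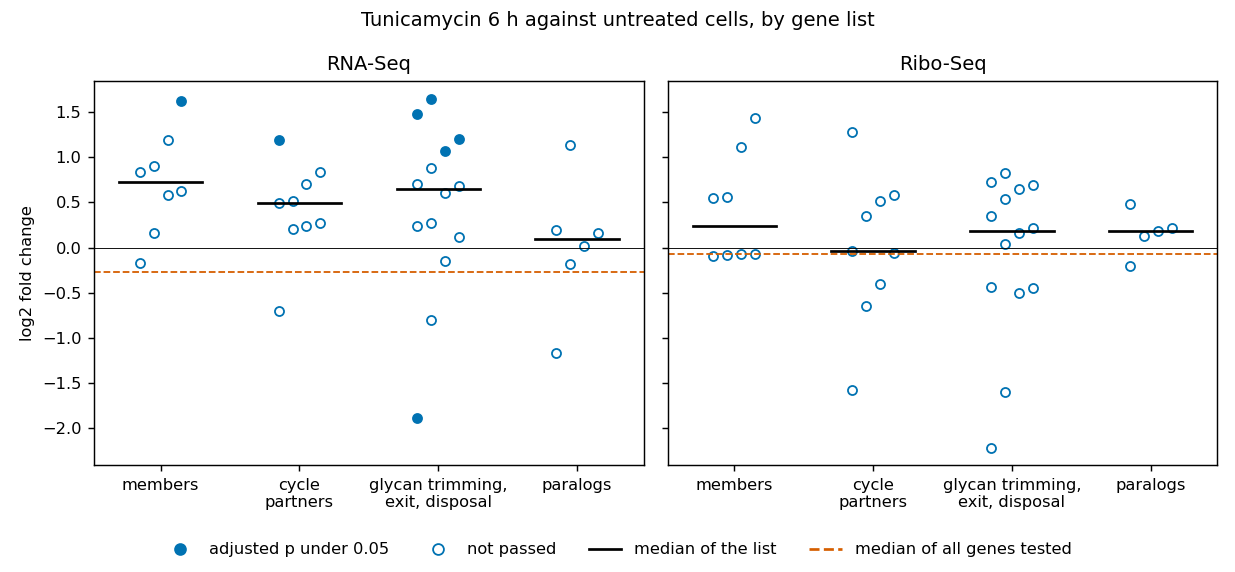
Log2 fold change at 6 h of tunicamycin against untreated cells for the members and 3 lists of related genes, in RNA-Seq (left) and Ribo-Seq (right). Points are genes, filled where the adjusted p is under 0.05, black bars are list medians and the dashed line is the median of all genes tested. In RNA-Seq the medians are 0.73 for the members, 0.49 for partners, 0.64 for glycan trimming, exit and disposal, and 0.09 for paralogs, beside -0.27 for all genes. Without untreated replicate 1 the median of all genes is -0.01.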

How the data were processed

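RNA-Seq and Ribo-Seq were measured in LN308 cells on 11 libraries each. The authors deposited raw counts per Ensembl gene, as whole numbers, and per the submitters' processing notes the authors used STAR 2.5.4b, HTSeq and DESeq2 with build GRCh38. No source used here states the annotation or whether counting used strand. For Ribo-Seq, cells had 5 min in cycloheximide at 0.1 mg/ml and fragments of 27 to 33 nt were taken, per the labels' protocols. Cycloheximide can change where ribosomes sit on an mRNA, which counts per gene do not show. No rows without a gene were present.

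The 8 members and the lists were chosen with earlier results of these data known. All members are named, and list genes where called. The rule also named the 3 genes most like a member called in an RNA-Seq tunicamycin comparison, which are not reported here. A gene of a list that was not called is named as an example, chosen after its value was seen. Counts were tested with the quasi-likelihood test of edgeR 4.0.16 (R 4.3.3): filterByExpr with a minimum count of 10, TMM scaling and all groups of an assay in 1 fit, with Benjamini-Hochberg adjustment over 41130 genes (RNA-Seq), 19411 (Ribo-Seq) or 18500 (both assays in 1 model, for translational efficiency). The SE of a change came from the F statistic, and 95% intervals are 1.96 SE, which is narrower than the small-sample test allows. Fits were tested on simulated counts. Alternatives were library size as the scaling, no filter, DESeq2 1.42.0, only the compared groups, the replicate number as a block, and each replicate left out. Added after the data were seen were replicates 2 and 3 alone, and the block without RNA-Seq untreated replicate 1.

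Libraries of 1 group differed by more than sampling noise (chi-square per degree of freedom 25.8 to 543), so none was counted as a repeat. Replicate numbers come from the labels, and were held to pair libraries where every same-numbered pair of deviations from the group means correlated over 0.1. This held in RNA-Seq for untreated and 6 h (0.211 to 0.444) and for 2 h and 6 h (0.699 to 0.840), and in Ribo-Seq for all 3 pairs of groups (0.138 to 0.473), but not in RNA-Seq for untreated and 2 h (lowest 0.0733). The rule did not use pairs of unlike number. In RNA-Seq these reached 0.589 for 2 h and 6 h and 0.265 for untreated and 6 h, and in Ribo-Seq 0.101. In RNA-Seq, passing the rule alone therefore does not show that replicates 2 and 3 are paired. The Ribo-Seq thapsigargin labels carry no replicate number and were left out of blocked fits. Footprints per codon and protein identity were planned but not run, since no protein sequences were used here.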

Additional observations from a re-analysis of the deposited data

Results flagged for a closer look

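MOGS, which encodes glucosidase I, stood out because its RNA-Seq libraries of 2 h of tunicamycin all lay below the mean of untreated cells and those of 6 h all lay above it. The untreated libraries were at 64.9, 72.1 and 70.0 CPM, those of 2 h at 57.6, 62.2 and 68.2 CPM, and those of 6 h at 107, 118 and 144 CPM. Between the times MOGS differed by 0.97 ± 0.20 on the log2 scale (adjusted p = 0.0626, edgeR), and with the replicate block the adjusted p was 0.0259. The 2 h libraries overlapped the untreated ones, and the change at 2 h was -0.14 ± 0.20.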

How the results depend on the processing

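Over the alternatives, 1664 changes of members were recomputed. Of these 1424 kept their direction and their side of the threshold, 173 changed sign without being called in either fit, 12 lost a call, 55 gained one and 0 called changes turned direction. In RNA-Seq at 6 h of tunicamycin (1 member called) the count was 5 with DESeq2, 0 with only the compared groups, 3 with the replicate block, 6 with replicates 2 and 3 alone (10.6% of all genes called higher) and 6 with the block without untreated replicate 1 (12.1%). Leaving out 1 library gave 0 to 2. Between 2 h and 6 h (0 called) it was 2 with DESeq2, 1 with only the compared groups, 2 with the replicate block, and 6 with replicates 2 and 3 alone and with the block without untreated replicate 1. At 6 h of thapsigargin (2 called) it was 1 with library size, 1 without the filter, 4 with DESeq2, 0 with only the compared groups and 6 with the block without untreated replicate 1, and 0 to 2 with 1 untreated library left out. The block without untreated replicate 1 called 1 member at 2 h of thapsigargin (HSP90B1, against 7.56% of all genes) and 1 for thapsigargin against tunicamycin at 6 h (MOGS, against 13.5%). In Ribo-Seq at 6 h of tunicamycin (0 called) the count was 2 without the filter, 2 with DESeq2, 2 with the replicate block and 1 with replicates 2 and 3 alone, and 0 to 1 with 1 library left out. Between 2 h and 6 h it was 1, 2, 1 and 1 in the same order. The replicate block changed no other count, and for RNA-Seq at 2 h, where the numbers did not pair the libraries, it gave 0. The changes of the within-library ratios and the untreated footprint levels moved by less than the spread between libraries (1 SD) under the alternatives run for them. That limit is weak. A ratio does not move with the scaling, and leaving out 1 of 3 libraries cannot move a group mean by 1 SD. The relaxed ERSE matched the same 3 members. Causes of these differences were not tested. Ribo-Seq had as few as 139 counts for a member (UGGT2), where counting error is largest. Footprints per codon were not run.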
